A study of Mus musculus with 12 samples.

Results

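The transcripts followed here belong to 10 mouse ATP-binding cassette (ABC) transporters that pump drugs and metabolite conjugates out of cells: Abcc1, Abcc2, Abcc3, Abcc4, Abcc5, Abcc10, Abcb1a, Abcb1b, Abcb6 and Abcg2. They were taken by gene symbol, as the rows with these symbols among the 35013 genes of the deposited count table. All 10 were found, and all 10 passed the filter on low counts that left 13502 genes for testing. RNA with poly-A tails was sequenced from KP1, a mouse cell line labelled as lung adenocarcinoma (LUAD). The cells carried an empty vector (EV) or overexpressed NRF2, and each line received DMSO, the solvent, or 5 nM romidepsin, an inhibitor of histone deacetylases, for 16 h. Each of the 4 combinations of line and treatment had 3 libraries, which the series design calls biological replicates. Neither line is said to be a clone or to come from several transductions, and p-values therefore reflect only how much these cultures varied.

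ABC transporters use ATP to move substrates across a membrane against their gradient. In detoxification they follow the conjugating enzymes: a foreign or reactive compound is first joined to glutathione, glucuronic acid or sulphate, and members of the ABCC (multidrug resistance protein, MRP) family then carry the conjugate out of the cell. P-glycoprotein, which mice encode in the gene copies Abcb1a and Abcb1b, and the breast cancer resistance protein Abcg2 instead expel many unmodified drugs, romidepsin being a known P-glycoprotein substrate. NRF2, encoded by Nfe2l2, is a transcription factor that binds antioxidant response elements (AREs) near genes of detoxification, and several MRP genes are among its known targets.

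The libraries held 16842824 to 28003010 estimated counts. Levels are given as CPM (counts divided by a TMM-scaled library size). A count of 3 corresponded to 0.105 to 0.182 CPM, a floor that covers counting error only. Nfe2l2 itself measured 101.8 ± 1.37 CPM in EV and 305 ± 40.7 CPM in NRF2 cells with DMSO, and 96.3 ± 2.90 and 349 ± 13.8 CPM with romidepsin (SD, n = 3), with each NRF2 library above each EV library. The third library of NRF2 cells with DMSO stood apart. Measured against the average of its 2 partner libraries, its log2 values differed by a root mean square of 0.465, against 0.255 to 0.350 for the other 11, and its mitochondrial share of counts was 7.30%, against 4.84 to 6.35% elsewhere. Of the markers of the labelled cell type, Krt8 measured 1259 ± 29.5 CPM and Cdh1 353 ± 11.5 CPM in EV cells with DMSO, whereas the lung lineage genes Nkx2-1, Sftpa1, Sftpb, Sftpc, Sftpd, Napsa and Scgb1a1 stayed at or below 0.317 CPM in the mean of every group. The epithelial genes Epcam and Cldn4 of the same list measured only 0.0307 ± 0.0276 and 0.119 ± 0.0415 CPM in EV cells with DMSO.

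Promoter windows were examined because NRF2 is known to act through AREs. RefSeq windows of GRCm38.p6 (250 bases before to 50 after a start site) were given for 8 of the 10 genes, in 12 windows; Abcc1 and Abcc3 had none. The ARE core TGACNNNGC, searched on both strands, lay in 6 of the 12 windows, from Abcc2, Abcc4, Abcc10 and Abcb1a, and in 12.4% of all 32851 windows. The AP-1 core TGANTCA lay in 0 of the 12 windows and in 7.81% of all windows, and no ARE core of a member overlapped it. The 6 matches are shown with 10 bases on either side, on the strand of the gene, with the ARE core in capitals (as its reverse complement in the first Abcc4 window and in Abcb1a), to let the members be compared.
Abcc2, chr19:43782200-43782228, + strand: ctcactgggaTGACATAGCattcatctag
Abcc4, chr14:118706226-118706254, - strand: gccccgagagGCGGGGTCAgggcgggccg
Abcc4, chr14:118676936-118676964, - strand: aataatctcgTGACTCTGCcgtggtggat
Abcc10, chr17:46328208-46328236, - strand: cgcagcacccTGACCTGGCagcgcgtcct
Abcc10, chr17:46325737-46325765, - strand: gtgagctttcTGACATGGCtgctaggaac
Abcb1a, chr5:8567107-8567135, + strand: ctctttgtccGCGGAGTCAgacagaacaa
In GENCODE M21 the Abcc2 match lay in an exon annotated as UTR, 98 to 90 bases before the RefSeq start, and the first Abcc4 match lay upstream of the gene, 25 to 17 bases before its start. The other Abcc4 match lay inside the Abcc4 gene outside its exons, both Abcc10 matches overlapped Abcc10 exons, and the Abcb1a match, at a RefSeq start 92986 bases from the GENCODE start of Abcb1a, lay within the gene Rundc3b on the opposite strand. Abcc4 is also shown over the whole 250 bases before its first start site (chr14:118706220-118706469, - strand), with the same core in capitals, because it was the member with a match in each of its windows that rose in every pairwise comparison below. That choice used the expression results, and Abcc5, which had no match, also rose in every pairwise comparison.
Abcc4 upstream: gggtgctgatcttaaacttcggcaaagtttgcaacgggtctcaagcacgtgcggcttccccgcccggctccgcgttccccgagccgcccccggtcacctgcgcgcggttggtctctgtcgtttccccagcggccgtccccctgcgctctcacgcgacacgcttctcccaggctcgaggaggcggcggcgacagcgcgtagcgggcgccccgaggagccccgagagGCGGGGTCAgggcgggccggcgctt
A match is only a description of these letters: no binding of a factor was measured. Abcc5, Abcb1b, Abcb6 and Abcg2 had no ARE core in their windows. In the test for NRF2 with DMSO below, Abcc5 and Abcb1b passed as higher, Abcg2 passed as lower and Abcb6 did not pass. Of the genes with a core, Abcc2, Abcc4 and Abcb1a passed as higher and Abcc10 did not pass. A link between the cores and these changes was not tested.

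**Figure D1:**
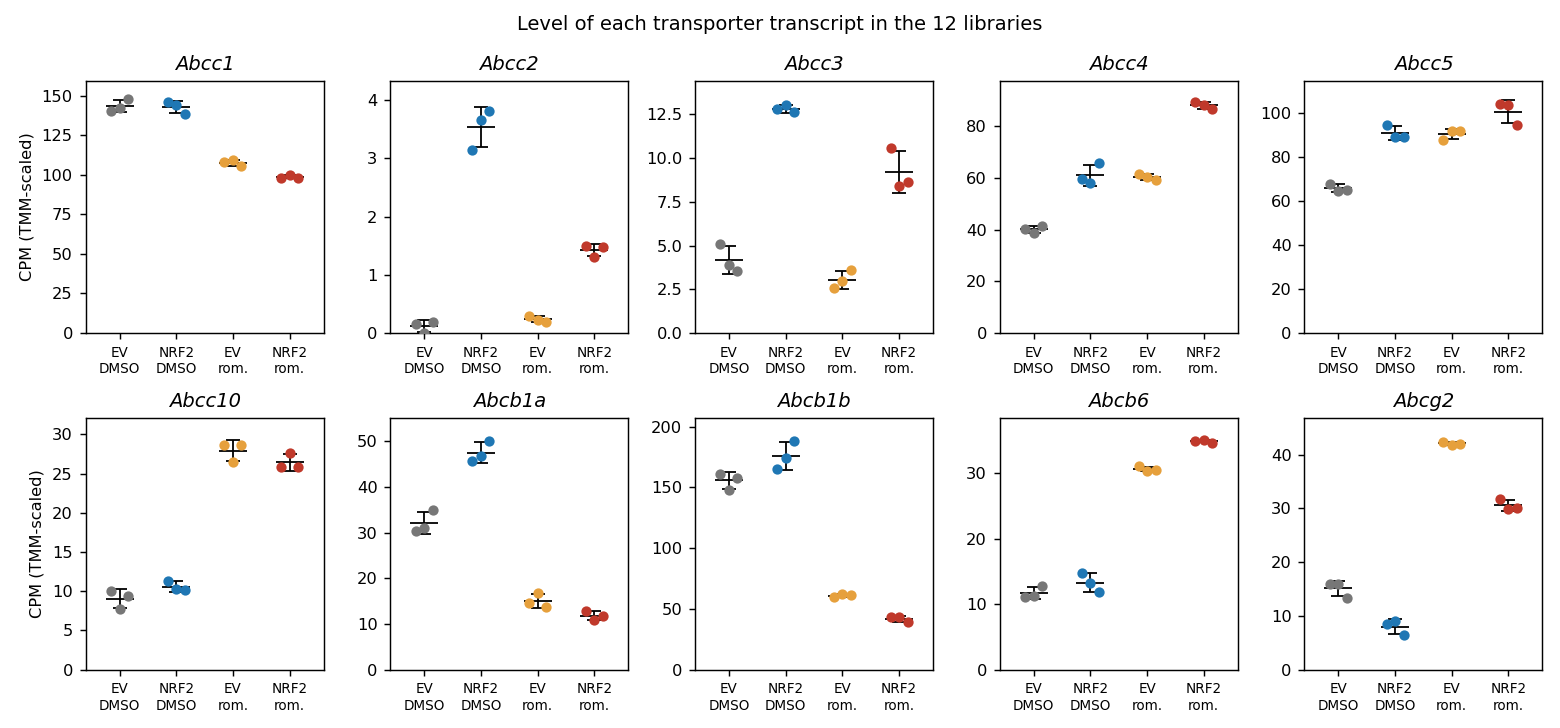
Level of each of the 10 transporter transcripts in the 12 libraries, in TMM-scaled CPM (y axis, starting at 0; scales differ between genes) against group (x axis; rom. is romidepsin). Dots are libraries, the long bar is the group mean and the short bars are 1 SD. Abcc2 was near 0 in EV cells and reached 3.15 to 3.82 CPM in NRF2 cells with DMSO, while Abcb1a and Abcb1b were lowest in NRF2 cells with romidepsin.

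With DMSO, overexpression of NRF2 raised 6 of the 10 transporter transcripts and lowered 1. The risers were 4 of the 6 Abcc genes, Abcc2, Abcc3, Abcc4 and Abcc5, and both P-glycoprotein copies, Abcb1a and Abcb1b. Abcg2 fell, and Abcc1, Abcc10 and Abcb6 did not pass the test. Among all genes tested, 36.3% passed (19.3% higher and 16.9% lower). The 3 libraries of each line did not overlap for 8 members, 7 of them higher in NRF2 cells, where 42.5% of all genes showed no overlap (21.8% higher and 20.7% lower). The median log2 fold change of the 10 members was 0.34, that of all genes -0.01.

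Abcc2 (MRP2), on chromosome 19 at 43782192-43840740 of GRCm38, is the exporter that carries glutathione and glucuronide conjugates such as bilirubin glucuronide across the apical membrane. EV libraries held 3, 0 and 5 counts of it and NRF2 libraries 64, 96 and 63 counts. These correspond to 0.160, 0 and 0.193 CPM in EV cells, where the library with no count allows up to 0.178 CPM, and to 3.15, 3.65 and 3.82 CPM in NRF2 cells. The groups were far apart, with the lowest NRF2 library above every EV library. However, Abcc2 passed the low-count filter only through the NRF2 groups. That selection favours its rise with NRF2, its lack of overlap and its place among the risers, with DMSO and with romidepsin. The ratio of the summed counts, corrected for library size, was 27.2, with a 95% counting interval of 13.6 to 63.7, and the log2 fold change was 4.71 ± 0.35 (SE; edgeR adjusted p = 1.1e-08). Even so, Abcc2 remained the scarcest of the 10 transcripts.

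Abcc3 (MRP3), which exports glucuronides across the basolateral membrane, measured 5.07, 3.91 and 3.55 CPM in EV libraries and 12.8, 13.1 and 12.6 CPM in NRF2 libraries. All NRF2 libraries were higher, with a log2 fold change of 1.63 ± 0.14 (SE; edgeR adjusted p = 6.6e-08). Abcc4 (MRP4) exports cyclic nucleotides, prostaglandins and nucleoside analogues. Its EV libraries stood at 40.3, 38.7 and 41.4 CPM and its NRF2 libraries at 59.6, 57.9 and 65.7 CPM, without overlap, a log2 rise of 0.60 ± 0.05 (edgeR adjusted p = 1e-07). Abcc5 (MRP5), another exporter of cyclic nucleotides and nucleotide analogues, went from 67.8, 64.7 and 65.2 CPM to 94.8, 89.1 and 89.1 CPM. That was a log2 rise of 0.46 ± 0.05 (edgeR adjusted p = 1.1e-06), again with every NRF2 library higher.

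Abcc1 (MRP1) is the family's exporter of glutathione conjugates such as leukotriene C4. It was the most abundant Abcc transcript per kb in EV cells with DMSO, and measured 140.3, 142 and 148 CPM in EV against 146, 144 and 139 CPM in NRF2 libraries. The lines overlapped: the log2 difference was -0.01, with a 95% interval of -0.09 to 0.08 (edgeR adjusted p = 0.93). Abcc10 (MRP7), an exporter of taxanes among other drugs, measured 9.99, 7.76 and 9.45 CPM in EV and 11.4, 10.3 and 10.1 CPM in NRF2 libraries. No libraries overlapped, but the log2 difference of 0.22 ± 0.09 missed the threshold (edgeR adjusted p = 0.082).

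Of the P-glycoprotein copies, Abcb1a measured 30.4, 31.1 and 34.9 CPM in EV libraries and 45.7, 46.8 and 50.1 CPM in NRF2 libraries, a log2 rise of 0.56 ± 0.08 (edgeR adjusted p = 2e-05). Abcb1b, the more abundant copy, measured 161, 148 and 158 CPM against 166, 174 and 188 CPM, a smaller rise of 0.18 ± 0.05 (edgeR adjusted p = 0.016). NRF2 libraries lay above EV libraries for each copy, though for Abcb1b only narrowly. Abcb6, a porphyrin transporter of mitochondria and other membranes, measured 11.1, 11.2 and 12.8 CPM against 14.7, 13.2 and 11.9 CPM, with overlap (log2 difference 0.18 ± 0.08, edgeR adjusted p = 0.12). Abcg2, which expels drugs, urate and porphyrins, was the member that fell: from 16.0, 16.0 and 13.4 CPM to 8.55, 9.13 and 6.42 CPM, a log2 change of -0.88 ± 0.10 (edgeR adjusted p = 3.5e-06). Every NRF2 library was below every EV library. In RNA from whole cultures, a change in the number of expressing cells and a change in RNA per cell cannot be told apart.

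Without the third library of NRF2 cells with DMSO, 8 members rose and 1 fell, since Abcc10 (edgeR adjusted p = 0.048) and Abcb6 (0.021) then passed. The rise of Abcb1b was lost without the second EV library with DMSO (edgeR adjusted p = 0.091) and in a fit of these 2 groups alone (0.057).

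**Figure D2:**
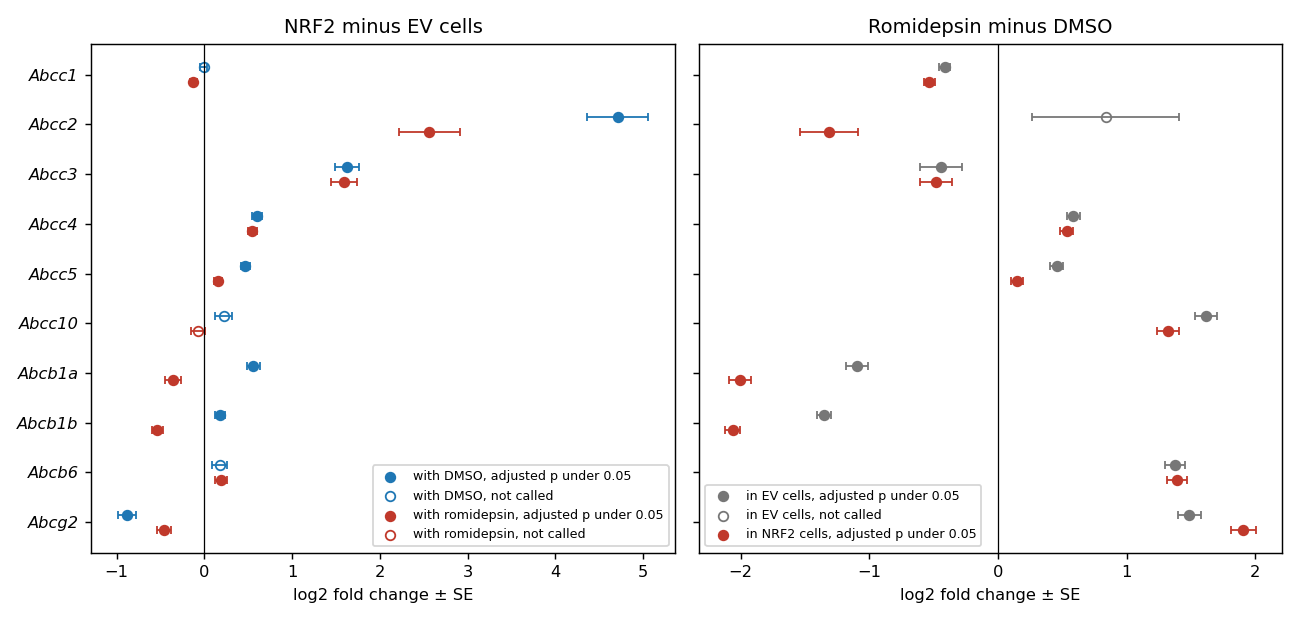
Log2 fold change ± SE of each transporter (y axis) for NRF2 against EV cells (left) and for romidepsin against DMSO (right). Filled points passed an edgeR adjusted p of 0.05, open points did not. Abcb1a and Abcb1b lay above 0 for NRF2 with DMSO (0.56 and 0.18) and below 0 with romidepsin (-0.35 and -0.53).

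In EV cells, romidepsin raised 5 transporter transcripts and lowered 4. Abcg2, Abcc10 and Abcb6 rose 2.60 to 3.06-fold and Abcc4 and Abcc5 by smaller factors, whereas Abcb1b and Abcb1a fell most, followed by Abcc3 and Abcc1. Abcc2 did not pass the test. Romidepsin changed 76.5% of all genes tested in these cells (39.1% higher, 37.4% lower), so the members' share of 9 in 10 lies close to a background in which most genes moved. No overlap between treatments was seen for 8 members, 5 of them higher, against 81% of all genes (41.1% higher, 39.9% lower).

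Abcb1b measured 60.0, 62.0 and 61.2 CPM with romidepsin, where the DMSO libraries given above ranged from 148 to 161 CPM. That was a log2 change of -1.35 ± 0.06 (edgeR adjusted p = 4.4e-13), a level 2.55-fold lower. Abcb1a measured 14.5, 16.9 and 13.8 CPM, a log2 change of -1.10 ± 0.08 (edgeR adjusted p = 1.7e-09). For each copy all romidepsin libraries lay far below all DMSO libraries. Abcc1 measured 108, 109.6 and 106 CPM, below its DMSO libraries by a log2 change of -0.41 ± 0.04 (edgeR adjusted p = 7.1e-08). Abcc3 measured 2.55, 2.97 and 3.59 CPM and overlapped its DMSO libraries, with a log2 change of -0.44 ± 0.16 (edgeR adjusted p = 0.019).

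Abcg2 measured 42.4, 41.9 and 42.0 CPM with romidepsin, against 13.4 to 16.0 CPM with DMSO. Its log2 rise was 1.49 ± 0.09 (edgeR adjusted p = 6.4e-11), with the treatments well separated. Abcc10 measured 28.7, 26.4 and 28.6 CPM, a log2 rise of 1.61 ± 0.09 (edgeR adjusted p = 1.5e-11), the largest of the 10 members in these cells. Abcb6 measured 31.04, 30.3 and 30.5 CPM, a log2 rise of 1.38 ± 0.08 (edgeR adjusted p = 3e-11). For Abcc10 and Abcb6, as for Abcg2, every romidepsin library lay above every DMSO library. Abcc4 measured 61.4, 60.5 and 59.0 CPM (log2 rise 0.59 ± 0.05, edgeR adjusted p = 1.5e-08) and Abcc5 87.8, 91.8 and 91.7 CPM (0.46 ± 0.05, 1.8e-07). These Abcc4 and Abcc5 levels were close to those of untreated NRF2 cells, a comparison across both factors that was not tested. Abcc2 held 6, 5 and 4 counts with romidepsin, which gave 0.295, 0.225 and 0.189 CPM. Its count ratio to DMSO was 1.81, with a 95% counting interval of 0.721 to 4.93 (edgeR adjusted p = 0.2), so edgeR detected no change at this depth, while limma-trend on the normalized values gave an adjusted p of 0.048.

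The fall of Abcc3 depended on single libraries: its edgeR adjusted p was 0.12 without the first EV library with DMSO, 0.091 without the first EV library with romidepsin and 0.051 without the second. It was also lost with upper-quartile factors (0.075) and with library size alone (0.082), scalings that moved the median of all genes by 0.11 to 0.14 on the log2 scale in the romidepsin comparisons.

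In NRF2 cells, romidepsin again moved most members, raising 5 and lowering 5, so that every member passed the test where 79.8% of all genes did (40.5% higher, 39.3% lower). The same 3 transcripts, Abcg2, Abcc10 and Abcb6, rose most, and Abcb1b and Abcb1a fell most. Abcc2, raised by NRF2, fell under romidepsin. For 9 members the treatments did not overlap, 4 of them higher, as for 79.8% of all genes (40.8% higher, 39% lower).

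Abcb1b measured 43.6, 43.3 and 39.2 CPM in NRF2 cells with romidepsin, a log2 change of -2.06 ± 0.06 from DMSO (edgeR adjusted p = 2e-15), a level 4.17-fold lower. Abcb1a measured 12.9, 10.97 and 11.7 CPM, a log2 change of -2.01 ± 0.08 (edgeR adjusted p = 3.3e-13). Abcc2 held 32, 37 and 26 counts, or 1.496, 1.30 and 1.48 CPM, and all 3 libraries were below the 3.15 to 3.82 CPM of the DMSO libraries. Its log2 change was -1.32 ± 0.22 (edgeR adjusted p = 3.4e-05). Among the other conjugate exporters, Abcc3 measured 10.6, 8.40 and 8.61 CPM (log2 change -0.48 ± 0.12, edgeR adjusted p = 0.0018) and Abcc1 98.2, 99.8 and 98.0 CPM (-0.53 ± 0.04, 1.9e-09).

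Abcg2 rose to 31.7, 29.9 and 30.2 CPM, from 6.42 to 9.13 CPM with DMSO, a log2 change of 1.91 ± 0.10 (edgeR adjusted p = 4.6e-12). Abcb6 stood at 34.9, 35.1 and 34.7 CPM (log2 rise 1.39 ± 0.08, edgeR adjusted p = 1.3e-11) and Abcc10 at 25.9, 27.6 and 25.8 CPM (1.32 ± 0.09, 1.3e-10). None of these 3 genes had overlapping treatments. Abcc4 reached 89.4, 88.2 and 86.9 CPM, the highest level of that transcript in any group, with a log2 rise of 0.53 ± 0.05 (edgeR adjusted p = 2.1e-08). Abcc5 measured 104, 103 and 94.6 CPM and overlapped its DMSO libraries, with a log2 rise of 0.15 ± 0.05 (edgeR adjusted p = 0.01). That small rise was lost without the second NRF2 library with DMSO (edgeR adjusted p = 0.053) or the first with romidepsin (0.095), and when no low-count filter was used (0.059).

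Whether romidepsin acted differently in the lines was tested as the interaction, the romidepsin log2 fold change in NRF2 cells minus that in EV cells. It passed for 5 of the 10 members, 1 higher and 4 lower, against 15.8% of all genes (5.53% higher, 10.2% lower). The P-glycoprotein copies fell more in NRF2 cells: the difference was -0.91 ± 0.12 for Abcb1a (edgeR adjusted p = 7.1e-05) and -0.71 ± 0.08 for Abcb1b (1.5e-05). Abcc2 differed by -2.15 ± 0.62 (edgeR adjusted p = 0.024), with romidepsin lowering it in NRF2 cells and no change passing the same test from very low counts in EV cells. Abcc5 rose less in NRF2 cells, by -0.31 ± 0.07 (edgeR adjusted p = 0.0058), and Abcg2 rose more, by 0.42 ± 0.13 (edgeR adjusted p = 0.04).

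For 5 members the difference between lines did not pass, and its 95% interval shows what size these data leave possible. The interval was -0.22 to 0.24 for Abcb6, -0.21 to 0.10 for Abcc4 and -0.47 to 0.40 for Abcc3, on the log2 scale. For Abcc1 it was -0.25 to 0.01 (edgeR adjusted p = 0.19) and for Abcc10 -0.56 to -0.04 (0.12, adjusted over all genes). Without the third library of NRF2 cells with DMSO, Abcc1 (edgeR adjusted p = 0.036) and Abcc10 (0.044) passed as lower, Abcg2 did not pass (0.068), and 2127 rather than 1380 genes passed as lower. Abcg2 also missed the threshold with limma-voom (adjusted p = 0.053), without the first or second EV library with DMSO (edgeR adjusted p = 0.095 and 0.1) and without any single romidepsin library (0.067 to 0.11). Abcc2 missed it without the second EV library with DMSO (edgeR adjusted p = 0.056) or without the first (0.088) or second (0.061) EV library with romidepsin.

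**Figure D3:**
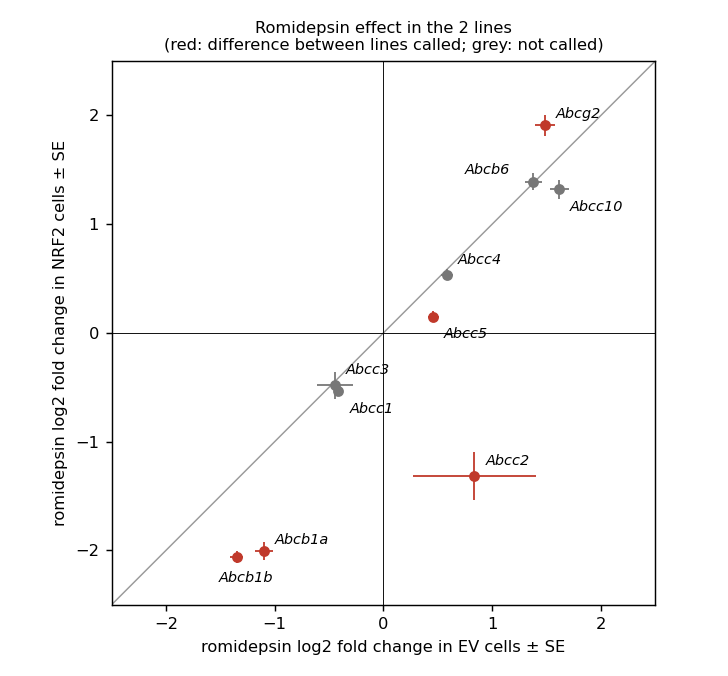
Romidepsin log2 fold change ± SE in EV cells (x axis) and in NRF2 cells (y axis) for the 10 transporters; the diagonal marks equal change, and red marks an interaction with an edgeR adjusted p under 0.05. Of the 5 red points, Abcb1a, Abcb1b, Abcc2 and Abcc5 lie below the diagonal and Abcg2 above it.

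In the presence of romidepsin, NRF2 cells were again set beside EV cells. Of the 10 members 5 were higher and 4 lower, against 45.4% of all genes (23% higher, 22.4% lower), and 9 showed no overlap between lines, against 61.2% of all genes (30.8% higher, 30.4% lower). The MRP genes Abcc2, Abcc3, Abcc4 and Abcc5 were higher, as with DMSO, and Abcb6 was slightly higher. Abcb1a, Abcb1b, Abcg2 and Abcc1 were lower. The median log2 fold change of the members was 0.04, that of all genes 0.00.

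From the libraries given above, Abcc2 was 5.90-fold higher in NRF2 cells (log2 2.56 ± 0.35, edgeR adjusted p = 1.4e-05) and Abcc3 3.01-fold (1.59 ± 0.15, 1.9e-07). Abcc4 was higher by 0.55 ± 0.05 on the log2 scale (edgeR adjusted p = 1.8e-07), beside 0.60 with DMSO. Both P-glycoprotein copies had changed direction: Abcb1b was lower by -0.53 ± 0.06 (edgeR adjusted p = 1.3e-06) and Abcb1a by -0.35 ± 0.09 (0.0046). For each copy the DMSO libraries of NRF2 cells lay above those of EV cells and the romidepsin libraries below. Abcg2 was lower under each treatment, here by -0.46 ± 0.08 (edgeR adjusted p = 0.00024). The differences of Abcc1 (-0.13 ± 0.04, edgeR adjusted p = 0.021), Abcc5 (0.16 ± 0.05, 0.014) and Abcb6 (0.19 ± 0.07, 0.04) were small, and each was lost when single libraries were left out. Abcb6 did not pass without any one of the 6 romidepsin libraries (edgeR adjusted p = 0.08 to 0.12), Abcc1 without the first (0.057) or second (0.084) of EV or the third (0.062) of NRF2 cells, and Abcc5 without the first of EV (0.072) or the first (0.11) or second (0.064) of NRF2 cells.

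The copies Abcb1a and Abcb1b lie next to each other on chromosome 5 (8660077-8748575 and 8798147-8866315, + strand, GRCm38), followed by Abcb4, which encodes a phosphatidylcholine transporter. Their coding sequences were 87.98% identical over 3819 aligned base pairs, and 1064 of their 31-base words were shared, 21.42% of those of Abcb1a and 24.71% of those of Abcb1b. Reads within shared words fit either gene, so the division of estimated counts between the copies is uncertain, and their sum is the safer measure. The summed level was 188 ± 7.40 CPM in EV and 224 ± 13.7 CPM in NRF2 cells with DMSO, and 76.1 ± 2.37 and 53.9 ± 2.79 CPM with romidepsin (SD, n = 3). As 1 gene the pair was higher in NRF2 cells with DMSO (log2 0.25 ± 0.05, edgeR adjusted p = 0.0011) and lower with romidepsin (-0.50 ± 0.06, 1.9e-06). Romidepsin lowered the sum by a log2 change of -1.30 ± 0.05 in EV cells (edgeR adjusted p = 4.7e-13) and -2.05 ± 0.06 in NRF2 cells (1.5e-15), and these differed by -0.75 ± 0.08 (6.8e-06).

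The share of Abcb1a in the summed counts was 15.9, 17.3 and 18.1% in EV libraries and 21.6, 21.2 and 21.0% in NRF2 libraries with DMSO. With romidepsin it was 19.5, 21.4 and 18.4% in EV and 22.8, 20.2 and 23.0% in NRF2 libraries. Exact 95% binomial intervals of single libraries, which cover counting error only, spanned 14.7 to 17.1% at the lowest share and 20.2 to 25.9% at the highest. EV libraries with DMSO were lower than NRF2 libraries with DMSO and than EV libraries with romidepsin, each without overlap. In a two-sided exact permutation test each of those comparisons gave p = 0.1 (0.2 adjusted over 4 comparisons), the smallest that 3 against 3 libraries allow. The neighbour Abcb4 measured 1.71, 1.84 and 1.08 CPM in EV and 3.10, 2.70 and 2.36 CPM in NRF2 libraries with DMSO, 2.50, 2.07 and 2.41 CPM and 3.83, 3.37 and 3.02 CPM with romidepsin. It was higher in NRF2 cells with DMSO (log2 0.86 ± 0.20, edgeR adjusted p = 0.0029) and with romidepsin (0.56 ± 0.18, 0.019), and in EV cells it rose with romidepsin (0.63 ± 0.21, 0.011), where both copies fell. Its romidepsin change in NRF2 cells did not pass (0.32 ± 0.18, edgeR adjusted p = 0.11). Abcb4 was singled out for the romidepsin comparison after its values were seen.

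**Figure D4:**
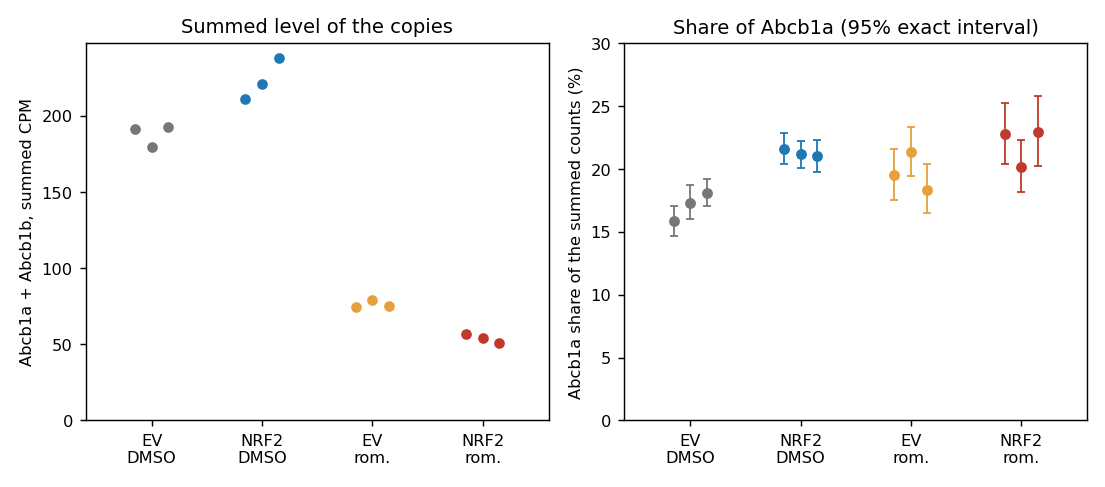
Summed CPM of Abcb1a and Abcb1b (left) and the share of Abcb1a in their summed counts with its exact 95% binomial interval (right), for each library by group. The sum fell from 179 to 238 CPM with DMSO to 50.9 to 78.8 CPM with romidepsin, while the share stayed between 15.9 and 23.0%.

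Dividing by the length of the longest coding transcript (GENCODE M21) makes the members comparable with each other. On this scale EV cells with DMSO were dominated by Abcb1b at 36.2 ± 1.55 CPM per kb and Abcc1 at 21.1 ± 0.563, followed by Abcc5 at 11.3 ± 0.287 (SD, n = 3). Then came Abcc4 (7.02) and Abcb1a (6.43), whose libraries overlapped, Abcb6 (3.95), Abcg2 (2.65), Abcc10 (1.72), Abcc3 (0.835) and Abcc2 (0.0147), each apart from its neighbour in the order. NRF2 cells with DMSO kept Abcb1b (40.9), Abcc1 (21.0), Abcc5 (15.7), Abcc4 (10.7) and Abcb1a (9.51 CPM per kb) in the leading places, but Abcc3 (2.56) stood above Abcc10 (2.01) and Abcg2 (1.41). With romidepsin EV cells led with Abcc1 (15.9) and Abcc5 (15.6), which overlapped, ahead of Abcb1b (14.2 CPM per kb). NRF2 cells with romidepsin led with Abcc5 (17.3), Abcc4 (15.4) and Abcc1 (14.5), and Abcb1b (9.77 CPM per kb) came after Abcb6 (11.8). Abcc2 was last in all 4 groups.

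Summed over the 10 transcripts, the level per kb ranged over 88.4 to 93.1 CPM per kb in EV and 107 to 111 in NRF2 libraries with DMSO, and over 82.5 to 83.5 and 81.1 to 85.3 with romidepsin. What differed more was the make-up. The P-glycoprotein pair held 46.7 ± 0.580% of the sum in EV and 46.4 ± 2.04% in NRF2 cells with DMSO, and 20.8 ± 0.460% and 14.5 ± 0.393% with romidepsin. The 6 Abcc genes held 46.1 ± 0.396%, 48.2 ± 1.35%, 57.9 ± 0.172% and 65.0 ± 0.238% in the same order. These shares follow from the levels tested above and were not tested again.

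**Figure D5:**
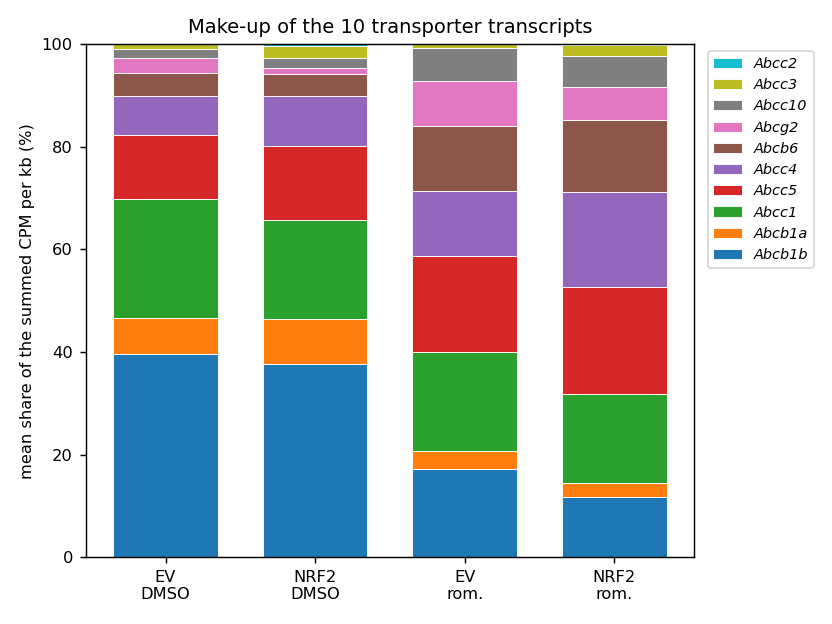
Mean share of each transporter in the summed CPM per kb of the 10 transcripts (y axis, %) in the 4 groups (x axis; rom. is romidepsin). The Abcb1a and Abcb1b segments together shrink from 46.7 and 46.4% with DMSO to 20.8 and 14.5% with romidepsin.

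The genes around the transporters were taken from lists of the same pathways. Conjugating enzymes of the glutathione S-transferase group (22 tested) had 15 members higher and 0 lower in NRF2 cells with DMSO (median log2 fold change 0.996), where 19.3% of all genes were higher and 16.9% lower. With romidepsin in EV cells 18 were higher and 2 lower, where 39.1% of all genes were higher and 37.4% lower. Some of these enzymes passed the low-count filter only through other groups, such as Gsta1 and Gstt1 (0.103 and 0.0326 CPM in EV cells with DMSO), which favours rises in both counts. Of 12 genes that make or supply glutathione, the co-substrate of Abcc1 and Abcc2, 8 were higher and 1 lower in that NRF2 comparison. Gss, glutathione synthetase, rose there from 57.7 ± 1.73 to 86.4 ± 2.94 CPM (edgeR adjusted p = 3.6e-08). With romidepsin 6 of the 12 were higher and 4 lower in EV cells, and 7 and 4 in NRF2 cells (all genes: 40.5% and 39.3%). Ggt1 and Ggt6 passed the low-count filter only through the romidepsin groups, which favours rises. Romidepsin lowered Slc7a11, the cystine importer, by a log2 change of -3.23 ± 0.07 in EV and -1.46 ± 0.06 in NRF2 cells. Ggct rose in EV cells, from 4.71 to 17.7 CPM (edgeR adjusted p = 2.4e-10). Gclc, the catalytic subunit of glutamate-cysteine ligase, measured 52.4 and 50.6 CPM in EV cells without and with romidepsin and rose from 110.6 to 275 CPM in NRF2 cells (log2 1.31 ± 0.05, edgeR adjusted p = 1.4e-13).

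Glucuronidation and sulphation genes had 10 of 28 tested, with 5 higher and 2 lower in NRF2 cells with DMSO, beside 19.3% and 16.9% of all genes. The pattern of Abcc2, up with NRF2 and down again with romidepsin in NRF2 cells, was shared by the glucuronosyltransferase Ugt2b34: 0.633 and 4.21 CPM in EV and NRF2 cells with DMSO, 0.391 and 0.720 CPM with romidepsin. Papss2, which makes the sulphate donor, was higher in NRF2 cells (log2 3.78 ± 0.35, edgeR adjusted p = 1.7e-07), and romidepsin raised it in both lines, by 2.87 ± 0.38 and 0.69 ± 0.20. Among 15 organic ion and nucleoside carriers tested, 6 were higher and 4 lower with NRF2 and DMSO, where 19.3% of all genes were higher and 16.9% lower. Slc22a18 and Slc47a1, among the 6, measured 0.0129 and 0 CPM in EV and 0.164 and 0.199 CPM in NRF2 cells with DMSO. They passed the low-count filter only through cells with romidepsin, so these calls rest on few counts. Slco2a1, the prostaglandin importer, rose from 53.6 ± 0.546 to 141.7 ± 12.9 CPM with NRF2 and stood at 55.0 ± 1.16 and 64.0 ± 1.73 CPM with romidepsin. Slc29a1, an equilibrative nucleoside carrier, was at 297 CPM with DMSO and 146 CPM with romidepsin in EV cells (log2 -1.03 ± 0.05, edgeR adjusted p = 1.1e-11).

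A list of transcription factors known to control efflux genes also held Keap1, which is not a transcription factor. Of its 23 genes tested, 7 were higher and 3 lower with NRF2 and DMSO (all genes: 19.3% and 16.9%). Nfe2l2 itself, the overexpressed gene, was among the 7. With romidepsin 6 were higher and 9 lower in EV cells, Keap1 among the 9 (all genes: 39.1% and 37.4%). Hnf4a, a factor of liver and gut epithelium, went from 44.7 ± 1.79 to 111.4 ± 4.77 CPM with NRF2 and to 5.50 ± 0.266 CPM with romidepsin in EV cells. Romidepsin raised Ahr, the aryl hydrocarbon receptor, by a log2 change of 1.58 ± 0.07 in EV cells. The small MAF partners of NRF2 differed there. Mafg changed by -1.28 ± 0.05 (edgeR adjusted p = 1.1e-13) and Mafk by 1.24 ± 0.05 (2.7e-13), while Maff did not pass (-0.07 ± 0.07, 0.41). In the haem and porphyrin pathway, which supplies substrates of Abcb6 and Abcg2, 11 of 23 genes were higher and 6 lower with romidepsin in EV cells, a called share near the 76.5% of all genes. Uros, which forms uroporphyrinogen, rose there by 1.84 ± 0.08 (edgeR adjusted p = 1.2e-12), beside the rise of Abcb6. Slc48a1, a haem carrier, was higher in NRF2 cells with DMSO, by 0.57 ± 0.06 (edgeR adjusted p = 7.4e-07). Of 11 partners that anchor or deliver transporters to the membrane, 7 were higher and 3 lower with romidepsin in EV cells, where 76.5% of all genes changed. Myo5b, a motor of apical delivery, rose by 2.03 ± 0.12, and Rdx, radixin, which anchors Abcc2 in bile canaliculi, fell by 1.11 on the log2 scale (± 0.04, edgeR adjusted p = 1.3e-13).

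The ABC genes outside the 10 members were counted in the same way. Of 43 listed, 25 were tested; with NRF2 and DMSO 2 were higher and 6 lower, and with romidepsin 18 were higher and 6 lower in EV cells, 17 higher and 5 lower in NRF2 cells. All genes tested were 19.3% higher and 16.9% lower for NRF2 with DMSO, and for romidepsin 39.1% higher and 37.4% lower in EV cells, 40.5% higher and 39.3% lower in NRF2 cells. The median log2 romidepsin change of these ABC genes was 0.72 in EV cells, beside 0.52 for the 10 efflux transporters and 0.01 for all genes. In NRF2 cells it was 0.77, beside -0.17 for the 10 transporters and 0.01 for all genes. Some of these ABC genes passed the low-count filter only through the romidepsin groups, such as Abcd2 and Abcg4 (0.0751 and 0.0849 CPM in EV cells with DMSO). That selection favours rises in the romidepsin counts and medians. Abcb9, a lysosomal peptide transporter, rose from 0.649 ± 0.199 to 8.75 ± 0.307 CPM in EV cells, and Tap2, of the antigen peptide transporter, from 0.827 ± 0.110 to 4.48 ± 0.182 CPM. Abca1, the cholesterol exporter, rose by 1.28 ± 0.21 in EV cells (edgeR adjusted p = 2.7e-05), whereas Abcb8, a mitochondrial member, fell by 0.92 on the log2 scale (± 0.08, 8e-09). These comparisons with romidepsin and with NRF2 share the EV libraries with DMSO.

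Markers of other cells were measured beside these changes. The summed level of 10 immune markers rose with romidepsin from 2.94-4.56 to 51.8-58.3 CPM in EV libraries and from 4.41-4.96 to 75.3-79.5 CPM in NRF2 libraries, most of it Cd68 (3.27 ± 0.636 to 49.6 ± 2.36 CPM in EV cells), a lysosomal protein of macrophages that other cells also make. All 5 immune markers tested were higher with romidepsin in each line, where 39.1% of all genes were higher in EV and 40.5% in NRF2 cells. In EV cells Lyz2 rose from 0.0435 to 1.94 CPM, Cd74 from 0.0692 to 1.76 CPM and Csf1r from 0.0197 to 0.437 CPM. Their levels in EV cells with DMSO lay below the floor of 0.105 CPM. Genes so low there passed the low-count filter only through other groups, so their rise was largely fixed by the filter. Ptprc, which defines leukocytes, rose from 0.259 to 0.549 CPM in EV cells (edgeR adjusted p = 0.04) and from 0.0746 to 0.273 CPM in NRF2 cells (0.02). Cd3e and Adgre1, of T cells and macrophages, averaged at most 0.0328 and 0.0157 CPM in any group. The 8 endothelial markers summed to 7.04 to 13.1 CPM over all libraries. Epithelial markers (18 genes) summed to 3888 to 3923 CPM in EV and 5722 to 6409 CPM in NRF2 libraries with DMSO, and 6409 to 6550 and 9472 to 9972 CPM with romidepsin. Most of that sum was keratins. With romidepsin 7 of the 11 epithelial markers tested were higher and 4 lower in each line. Among all genes 39.1% were higher and 37.4% lower in EV cells, and 40.5% and 39.3% in NRF2 cells. Of the epithelial markers that rose in EV cells, Epcam went from 0.0307 to 3.59 CPM, Cldn4 from 0.119 to 1.13 CPM and Krt19 from 292 to 966 CPM. Epcam and Cldn4 passed the low-count filter only through the romidepsin groups, which favours their rise. In EV cells the 4 that fell were Cdh1, from 353 to 246 CPM, Hnf4a, from 44.7 to 5.50 CPM, Foxa1, from 64.2 to 25.6 CPM, and Foxa2, from 28.7 to 17.5 CPM. Fibroblast and mesenchymal markers (16 genes) summed to 5233 to 5349 CPM in EV and 4581 to 4654 CPM in NRF2 libraries with DMSO, and 7314 to 7464 and 6117 to 6497 CPM with romidepsin. Most of this was Vim, while Twist1 was lower in NRF2 cells with DMSO (18.2 against 2.58 CPM, edgeR adjusted p = 6.2e-11), and the fibroblast genes Col3a1 and Dcn averaged at most 0.0471 and 0.0606 CPM in any group. Col1a1, however, rose with romidepsin in EV cells from 0.511 to 6.11 CPM (edgeR adjusted p = 1e-10), Pdgfra from 0.745 to 2.72 CPM and Snai1 from 0.940 to 3.70 CPM. Zeb2, among the genes that fell there, went from 38.1 to 12.6 CPM (edgeR adjusted p = 7.4e-10). Of the 11 tested in that comparison 4 were higher and 5 lower, where 39.1% of all genes were higher and 37.4% lower. The part of these marker changes in the transporter results was not tested.

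Across the 12 libraries the genes most like each member in log2 CPM were named as a description only; the libraries share 4 group means, so high correlations are common. Among 9711 to 9712 candidates averaging 5 CPM or more, Abcc2 was most like Gsta1 (Pearson r = 0.971), a glutathione S-transferase, and Nrcam (0.968). Abcc3 was most like G6pc3 (0.978) and Pgm1 (0.971), and Abcc4 like Stom (0.991) and Osgin1 (0.989). Abcb1a was most like Pcna (0.994), the replication clamp, and Rasgrp3 (0.993), and Abcb1b like Mrc1 (0.999) and Kif15 (0.998), a mitotic kinesin. The nearest genes to the risers under romidepsin were Phospho1 (0.998) and Ppm1j (0.997) for Abcb6, Coro1a (0.994) and Dusp3 (0.994) for Abcc10, and Fam219a (0.994) and Ube2b (0.993) for Abcg2. Abcc1 was nearest to Atp2a2 (0.998) and Tubgcp2 (0.997), and Abcc5 to Arap1 (0.984) and Ehbp1l1 (0.984). Among the members themselves r ranged widely: it was 0.976 for Abcb1a with Abcb1b, 0.983 for Abcc10 with Abcb6, 0.929 for Abcc4 with Abcc5, and -0.974 for Abcb1b with Abcb6 (n = 12 libraries).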

How the data were processed

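Poly-A RNA of 12 libraries (4 groups of 3) was analysed. Per the submitters' processing notes, bcl2fastq 2.19, kallisto 0.44.0 and DESeq2 were used, with genome build GRCm38. The deposited table of estimated counts per gene symbol held whole numbers and was used as deposited. For the deposited signal table, which the authors normalized, the median ratio of estimated count to signal was taken in each library. It matched a size factor recomputed from the counts (largest relative difference between the factors 4.4e-16). No read-level step was repeated; kallisto divides reads that fit several genes, which bears on Abcb1a and Abcb1b.

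Genes were filtered with edgeR 4.0.16 (filterByExpr, 13502 of 35013 kept) and tested with its two-sided quasi-likelihood test (robust, TMM factors, 1 mean per group, 12 libraries, 8 residual degrees of freedom). P-values were adjusted by Benjamini and Hochberg's method over the 13502 genes, with a call under 0.05. Genes low in some groups stay in if another group expresses them. The prior count of log2 fold changes was 0.125; their SE is their size over the root of F. Correlations used log2 CPM with a prior count of 2. Levels are mean ± SD over 3 libraries, whose totals ranged from 16842824 to 28003010. Positions and lengths came from GENCODE M21 and promoters from RefSeq (GRCm38.p6). The procedure was tested on simulated data.

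The members, pathway lists and rules were chosen with earlier results of these data known. Named genes were the members, Nfe2l2, the most similar genes of each member, and, from each list, some of the 4 called genes that changed most among those reaching 1 CPM, or the called gene furthest against the majority. Markers named are those of the fixed marker lists. Other settings tried were DESeq2 1.42.0, limma-voom, limma-trend (limma 3.58.1, on the deposited normalized signal with a pseudocount of 1), scaling by RLE, upper quartile or library size, a low-count filter left out or set at 1 CPM in 3 libraries, fits of only the 2 groups compared, a replicate block, the summed Abcb1 copies, and leaving out each library.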

Additional observations from a re-analysis of the deposited data

Results flagged for a closer look

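Romidepsin changed 5 of the transporters differently in the lines, by a test of the difference itself (romidepsin log2 fold change in NRF2 minus EV cells, edgeR): Abcc2 by -2.15 (adjusted p = 0.024), Abcb1a by -0.91 (7.1e-05), Abcb1b by -0.71 (1.5e-05), Abcc5 by -0.31 (0.0058) and Abcg2 by 0.42 (0.04). Abcc2 rests on 8 counts in the EV libraries with DMSO, and the Abcg2 difference did not pass with limma-voom, as given above. The same test passed for other genes named. Positive differences were measured for Slc7a11 (1.77, adjusted p = 2.3e-09), Gclc (1.37, 3.6e-09), Tap2 (1.11, 0.036), Abca1 (1.08, 0.03) and Fam219a (0.52, 0.013). Negative differences were measured for Papss2 (-2.18, adjusted p = 0.0033), Ugt2b34 (-1.84, 0.0024), Slco2a1 (-1.18, 7.2e-08) and Slc29a1 (-0.24, 0.04). Among the markers they were measured for Lyz2 (-2.02, adjusted p = 0.041), Foxa1 (-0.52, 0.0027) and Cdh1 (-0.36, 0.00072). Among the genes most like a member they were measured for Gsta1 (-2.94, adjusted p = 0.033), Nrcam (-1.26, 8.4e-05), Rasgrp3 (-0.99, 8.3e-05), Mrc1 (-0.98, 6.4e-07), Kif15 (-0.72, 0.00016), Arap1 (-0.55, 0.00045), Pcna (-0.40, 0.00018) and Ehbp1l1 (-0.36, 0.00048). Lyz2 (0.0435 ± 0.0395 CPM), Gsta1 (0.103 ± 0.178 CPM) and Papss2 (0.186 ± 0.176 CPM) lay near or below the floor in EV cells with DMSO. Their differences therefore rest on few counts, as for Abcc2.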

How the results depend on the processing

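Of the transporters' log2 fold changes recomputed under the alternatives, 1040 kept their direction and their side of the threshold, 41 lost the call, 7 gained it and 11 changed sign, none of the last having been called. With limma-voom and with limma-trend, 0 members rather than 1 passed as higher in the interaction. Leaving out 1 library at a time gave, for members higher and lower, 5 to 8 and 1 with NRF2 and DMSO, 3 to 5 and 3 to 4 with NRF2 and romidepsin (3 without the first EV library or the first or second NRF2 library with romidepsin), 5 and 3 to 4 for romidepsin in EV cells, 4 to 5 and 5 in NRF2 cells, and 0 to 1 and 3 to 6 in the interaction. Over all genes the interaction ranged over 465 to 921 higher, the lowest without the second EV library with romidepsin, and 959 to 2127 lower. The sign changes were of the Abcb6 interaction (-0.00052 without a filter, and -0.070 to 0.080 over the fits without 1 library), the Abcc3 interaction (-0.20 to 0.10 over those fits) and Abcc1 with NRF2 and DMSO (-0.023 to 0.018). No shared deviation by replicate number was detected: same-numbered libraries of different groups deviated from their group means with correlations of -0.12 to 0.06, 0 of 18 above 0.1. That does not show whether same-numbered libraries were handled together. The replicate block ended 1 member's call, that of Abcb6 for NRF2 with romidepsin (log2 0.19, adjusted p = 0.06), and no other. Limma-trend added a call for Abcc2 with romidepsin in EV cells (adjusted p = 0.048). Depth limited Abcc2 most: 8 and 15 counts over the EV libraries with DMSO and with romidepsin.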
